A study of Mus musculus with 14 samples.

Results

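Type I interferons switch on a set of antiviral genes in nearly every cell type, and 35 of these genes are followed here in mouse liver across 3 diets. They were chosen by gene name from the pathway's known targets and regulators, with earlier results of these data known. Each was represented by its brightest array probe. A probe was found for 34 of the 35, which form part of 36096 genes on the array. Of these, 33 passed a filter on dim probes and were tested beside 32666 genes in all. Oas1g, which stood well above background on 2 of 14 arrays and on 0 of 5 standard-diet arrays, did not pass, and no probe was matched to Xaf1.

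The mice were male C57BL/6 animals of 1 year with free access to food, and each array carried the liver RNA of 1 animal. In 4 mice the food was the AIN-93G diet changed to give 60% of calories from fat, with 0.04% resveratrol, a plant polyphenol, added to it. These are called resveratrol mice. The same fat-rich food without resveratrol went to 5 mice (high-calorie mice) and plain AIN-93G to 5 mice (standard-diet mice). On every Agilent array the animal's RNA carried Cy3 and a pool made from 5 standard-diet livers carried Cy5, with no array in the opposite dye order. Each value is thus the log2 of animal over pool. The dye effect of a probe is part of it, so only differences between diets are read, and no probe's level is set against another's. The sources used here give no feeding time, and do not say whether the pooled livers came from the same 5 mice.

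Interferon alpha and beta bind a receptor made of IFNAR1 and IFNAR2, whose kinases JAK1 and TYK2 phosphorylate STAT proteins. With IRF9 these form ISGF3, which binds the interferon-stimulated response element (ISRE) in front of its target genes. The targets include sensors of viral RNA, enzymes that degrade or block it, membrane proteins that hinder virus entry or release, and USP18, which shuts the receptor down again. In liver both hepatocytes and the resident macrophages, the Kupffer cells, respond to interferon.

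The promoters of 6 of these genes are shown because ISGF3 binds the ISRE. All 6 hold a match to the ISRE core searched for here. No gene that only rose on the high-calorie diet is among them. RefSeq promoters of assembly GRCm38.p6 were matched by symbol for 25 of the 35 genes, and windows from 250 bases before to 50 bases after an annotated start were searched on both strands. The motif letters were GAAANNGAAA for the ISRE core and TTCNNNGAA for the core of the GAS element, which answers to interferon gamma. GAAANNGAAA can overlap itself, and either motif can overlap the other. The 250 bases before the start are printed 5′ to 3′ on the strand of the gene, and capitals mark the ISRE core on either strand.
Ifit1: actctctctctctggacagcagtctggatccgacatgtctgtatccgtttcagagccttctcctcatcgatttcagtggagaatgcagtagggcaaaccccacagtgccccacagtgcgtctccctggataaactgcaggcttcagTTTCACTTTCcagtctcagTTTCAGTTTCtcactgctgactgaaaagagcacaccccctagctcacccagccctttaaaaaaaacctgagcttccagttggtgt
Ifit3: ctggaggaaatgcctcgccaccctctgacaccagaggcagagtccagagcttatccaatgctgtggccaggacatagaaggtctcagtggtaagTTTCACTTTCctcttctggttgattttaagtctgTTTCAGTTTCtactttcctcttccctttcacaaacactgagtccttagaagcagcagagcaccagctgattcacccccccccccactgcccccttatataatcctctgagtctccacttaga
Isg15: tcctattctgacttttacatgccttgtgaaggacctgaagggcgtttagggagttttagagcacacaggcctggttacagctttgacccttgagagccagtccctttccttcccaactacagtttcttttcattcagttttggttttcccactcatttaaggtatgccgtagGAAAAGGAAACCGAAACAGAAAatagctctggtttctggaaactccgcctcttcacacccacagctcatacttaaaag
Oas1a: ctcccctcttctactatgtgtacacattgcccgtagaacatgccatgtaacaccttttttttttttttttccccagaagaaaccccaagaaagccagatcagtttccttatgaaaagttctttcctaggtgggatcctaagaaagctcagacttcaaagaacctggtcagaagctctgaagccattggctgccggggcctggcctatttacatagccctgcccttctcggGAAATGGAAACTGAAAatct
Bst2: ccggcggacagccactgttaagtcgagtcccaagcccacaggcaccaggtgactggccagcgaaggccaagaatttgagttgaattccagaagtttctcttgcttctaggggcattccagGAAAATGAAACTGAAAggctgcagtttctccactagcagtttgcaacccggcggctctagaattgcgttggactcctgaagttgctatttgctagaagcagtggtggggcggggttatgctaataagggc
Oas3: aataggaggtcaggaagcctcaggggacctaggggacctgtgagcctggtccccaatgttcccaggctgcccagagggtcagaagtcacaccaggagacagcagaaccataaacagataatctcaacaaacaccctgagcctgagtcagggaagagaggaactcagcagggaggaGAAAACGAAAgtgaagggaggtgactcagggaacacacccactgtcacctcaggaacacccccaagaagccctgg
The windows lie at chr19:34640639-34640888 (plus strand) for Ifit1, chr19:34583279-34583528 (plus strand) for Ifit3, chr4:156200819-156201068 (minus strand) for Isg15, chr5:120907526-120907775 (minus strand) for Oas1a, chr8:71537473-71537722 (minus strand) for Bst2 and chr5:120777660-120777909 (minus strand) for Oas3. The first 4 genes both rose on the high-calorie diet and fell with resveratrol, Bst2 fell with resveratrol only, and Oas3 was called in neither comparison, as given below. In Ifit1 and Ifit3 the pair of matches runs on the opposite strand, and it starts 85 and 104 bases before the Ifit1 start and 122 and 156 bases before the Ifit3 start. Isg15 has 3 overlapping matches that start 66, 72 and 78 bases before the start, and Oas1a and Bst2 have 2 overlapping matches each. Oas3 has 1 match, 75 bases before the start.

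An ISRE core was found in 14 of the 25 genes with a promoter (56.0%), against 3.99% of 27025 genes with a promoter in the table. At least 2 matches were found in 7 of the 25 (28.0%), against 0.266% of all genes. The GAS core was found in 10 of the 25 (40.0%), against 9.55% of all genes. Among the genes that rose on the high-calorie diet 5 of 9 with a promoter held the ISRE core, and among those tested that did not rise on it 8 of 14 did. No ISRE core was found for Ifi44, Oasl1 and Oasl2, which rose on the diet and fell with resveratrol. A match describes letters in a window. It does not show that a factor binds there, and no match says only that these letters are not in that window.

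**Figure D1:**
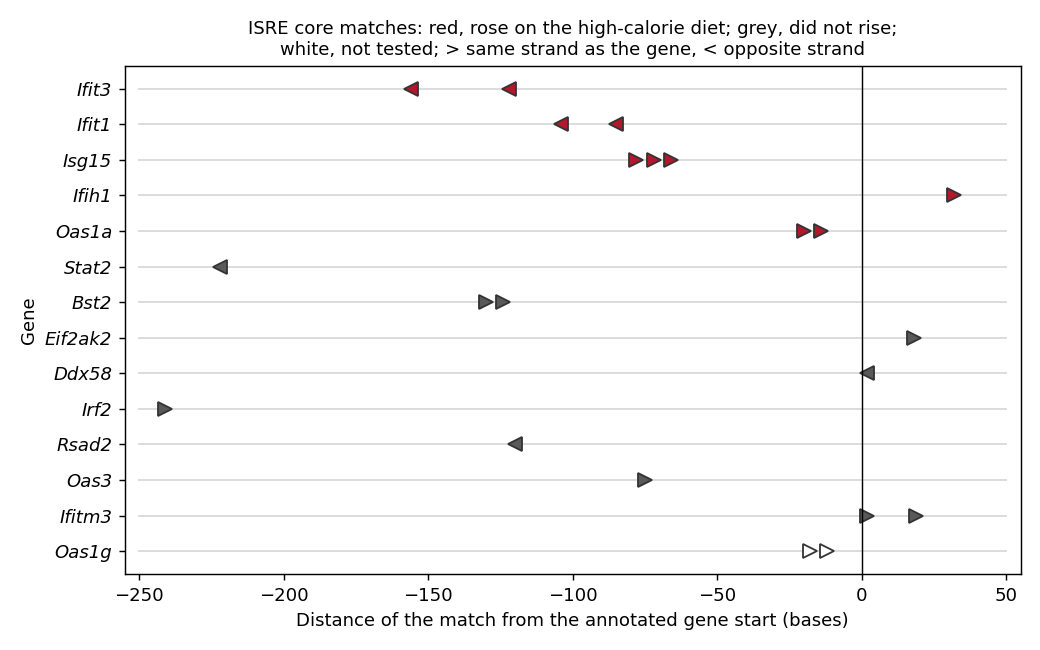
Each triangle is a match to the ISRE core, placed by the distance of its first base from the annotated gene start in bases (horizontal axis), for the 14 genes with a match (vertical axis). Red marks genes that rose on the high-calorie diet, grey genes tested that did not rise on it, white the untested Oas1g. Matches of Ifit1, Ifit3, Isg15, Oas1a, Bst2 and Oas3 lie before the start, and those of Ifih1, Eif2ak2, Ddx58 and Ifitm3 after it.

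Arrays differed in brightness. The median net Cy3 signal was 65.9 to 100.2 intensity units on resveratrol arrays, 57.7 to 114.4 on high-calorie arrays and 48.6 to 85.6 on standard-diet arrays. The image files were processed on 2 days, with all 4 resveratrol, 2 high-calorie and 3 standard-diet arrays on the first day. The slides fall into 2 number series, the first with 3 resveratrol and 2 high-calorie arrays and no standard-diet array. A pair of mice stood apart within their diets. Resveratrol mouse 4 had the highest value of its diet in 20 of the 33 genes and standard-diet mouse 5 in 20 of the 33, and theirs were the brightest arrays of these diets. The standard hepatocyte gene Alb was measured on all 14 arrays, and 16 of 17 tested hepatocyte markers were well above background on every array.

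Many interferon genes were higher in high-calorie than in standard-diet livers, and many were lower in resveratrol than in high-calorie livers. Against the standard diet 15 of the 33 genes rose on the high-calorie diet and 0 fell, at an adjusted p under 0.05 in limma with Benjamini-Hochberg adjustment over all 32666 genes. That is 45.5% of them, against 5.37% of all genes called higher and 9.44% called in either direction. Their median log2 difference was 0.21, against -0.0021 over all genes. Against high-calorie mice 12 of the 33 fell in resveratrol mice and 0 rose, which is 36.4%, against 2.23% of all genes called lower and 5.39% in either direction. The median was -0.23, against -0.0068 over all genes. Between resveratrol and standard-diet mice 0 of the 33 were called, with 3 at an unadjusted p under 0.05, where limma called 0.214% of all genes in either direction, 0.126% higher and 0.0888% lower. In whole liver RNA, more cells of a responding type and more RNA per cell cannot be told apart.

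The first 2 of these comparisons share the 5 high-calorie arrays, so a high-calorie value enters both with opposite sign. Their lists of calls were 11 genes that rose on the diet and fell with resveratrol, 4 that rose only, 1 that fell only and 17 called in neither. Over all genes tested, 442 of 32666 (1.35%) rose on the diet and fell with resveratrol in the same 2 tests, and the shared arrays enter both counts. Before any test, 28 of the 33 genes had a higher mean in high-calorie than in standard-diet mice, and 29 had a lower mean in resveratrol than in high-calorie mice. In 12 genes every high-calorie mouse lay above every standard-diet mouse, against 5.15% of all genes that did so and 5.18% that separated the other way. In 15 genes every resveratrol mouse lay below every high-calorie mouse, against 6.15% of all genes that did so and 6.82% the other way. Not 1 gene separated resveratrol from standard-diet mice in this way, where 1.09% of all genes did so above and 1.85% below.

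**Figure D2:**
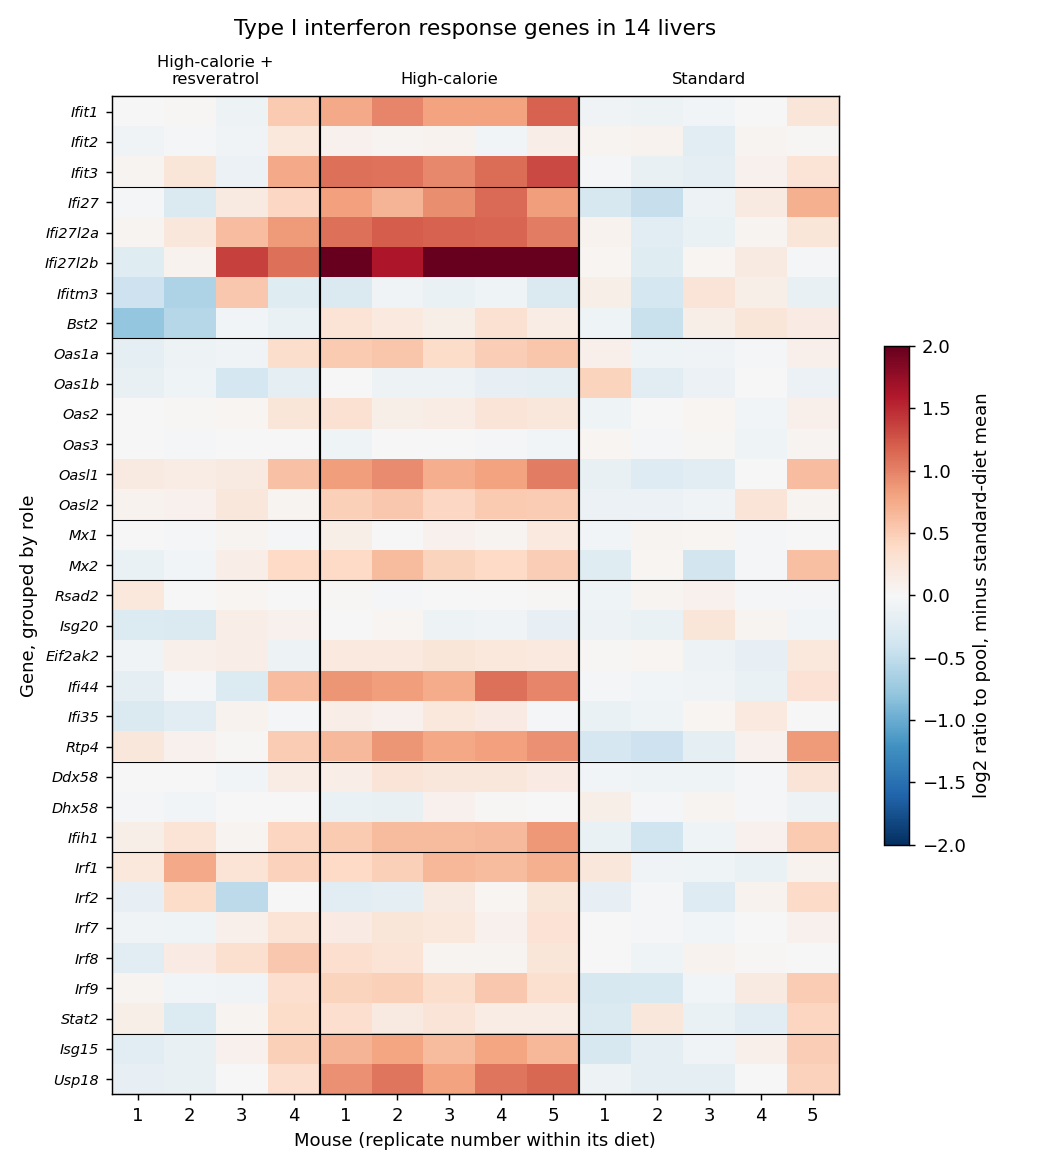
Colours give each gene's log2 ratio to the pool minus its mean over standard-diet mice, for 33 genes (vertical axis, grouped by role) in 14 mice (horizontal axis, by diet), with red higher and blue lower. The scale ends at 2.0 and values beyond it, all in Ifi27l2b, have the end colour. The high-calorie columns are red in Ifit1, Ifit3, Isg15, Usp18 and the ISG12 genes, and resveratrol mouse 4 and standard-diet mouse 5 are the reddest of their diets.

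The IFIT proteins bind foreign RNA ends and block its translation. Ifit1 had log2 ratios of -0.23, -0.20, -0.33 and 0.31 in resveratrol mice, 0.53, 0.75, 0.58, 0.58 and 0.96 in high-calorie mice and -0.29, -0.32, -0.27, -0.23 and 0.018 in standard-diet mice. Every high-calorie mouse was above every mouse of both other diets, which overlapped each other. Ifit1 rose by 0.90 ± 0.11 (SE, log2) on the high-calorie diet, or 1.87-fold (limma, adjusted p = 0.000425), and fell by 0.79 ± 0.12 with resveratrol (limma, adjusted p = 0.00577). Ifit3, whose human counterpart binds and stabilises IFIT1, had log2 ratios of -0.48, -0.29, -0.66 and 0.21 in resveratrol mice, 0.56, 0.55, 0.42, 0.58 and 0.77 in high-calorie mice and -0.58, -0.68, -0.71, -0.45 and -0.27 in standard-diet mice. Again no high-calorie value was reached in the other diets, with resveratrol mouse 4 the closest. Ifit3 rose by 1.12 ± 0.13 (adjusted p = 0.000301) and fell by 0.88 ± 0.14 with resveratrol (adjusted p = 0.00711). Ifit2, the third member, was not called, with a difference of 0.060 ± 0.065 on the high-calorie diet. Its second probe was not called either and was well above background on 4 of 14 arrays. The IFIT genes are close relatives, and cross-hybridisation between them was not tested.

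The ISG12 genes encode small hydrophobic proteins of inner membranes, and 3 related copies were on the array. Ifi27l2b gave log2 ratios of -1.69, -1.37, -0.081 and -0.34 in resveratrol mice, 1.04, 0.18, 1.02, 0.69 and 0.82 in high-calorie mice and -1.40, -1.68, -1.40, -1.27 and -1.46 in standard-diet mice. The high-calorie and standard-diet mice were far apart, and resveratrol mice 1 and 2 lay with the standard-diet mice while mice 3 and 4 lay between. The difference of 2.19 ± 0.26 (SE), or 4.56-fold, was the largest among the 33 genes (adjusted p = 0.000273). With resveratrol Ifi27l2b fell by 1.62 ± 0.28, or 3.07-fold (adjusted p = 0.00833). For Ifi27l2a the log2 ratios were -1.09, -0.91, -0.52 and -0.29 in resveratrol mice, -0.030, 0.081, 0.041, 0.033 and -0.11 in high-calorie mice and -1.07, -1.35, -1.28, -1.09 and -0.90 in standard-diet mice. The 5 high-calorie mice lay closely together above all others, and the resveratrol mice spread from the standard-diet range up towards them. Ifi27l2a rose by 1.14 ± 0.13, with the smallest adjusted p of the 33 genes (0.000179), and fell by 0.70 ± 0.13 with resveratrol (adjusted p = 0.0131). Its second probe gave 1.26 ± 0.15 and -0.90 ± 0.16 for the same differences. Ifi27 rose by 0.88 ± 0.19 on the diet, with groups that overlapped through standard-diet mouse 5, and fell by 0.81 ± 0.20 with resveratrol (adjusted p = 0.0348). How far these related sequences share signal was not tested.

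Bst2 encodes tetherin, which holds budding virus at the cell surface. Its log2 ratios were -0.32, -0.10, 0.40 and 0.33 in resveratrol mice, 0.74, 0.65, 0.58, 0.76 and 0.61 in high-calorie mice and 0.37, 0.026, 0.59, 0.71 and 0.63 in standard-diet mice. The high-calorie mice lay at the upper end of the standard-diet range, and every resveratrol mouse was below every high-calorie mouse. Bst2 differed by 0.21 ± 0.14 between high-calorie and standard-diet mice (adjusted p = 0.365, not called) and fell by 0.59 ± 0.15 with resveratrol (adjusted p = 0.0370). Resveratrol mice were at -0.38 ± 0.15 relative to standard-diet mice (adjusted p = 0.385, not called). Ifitm3, which hinders virus entry, had a difference of -0.17 ± 0.17 on the diet and -0.0077 ± 0.19 with resveratrol, and neither was called.

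**Figure D3:**
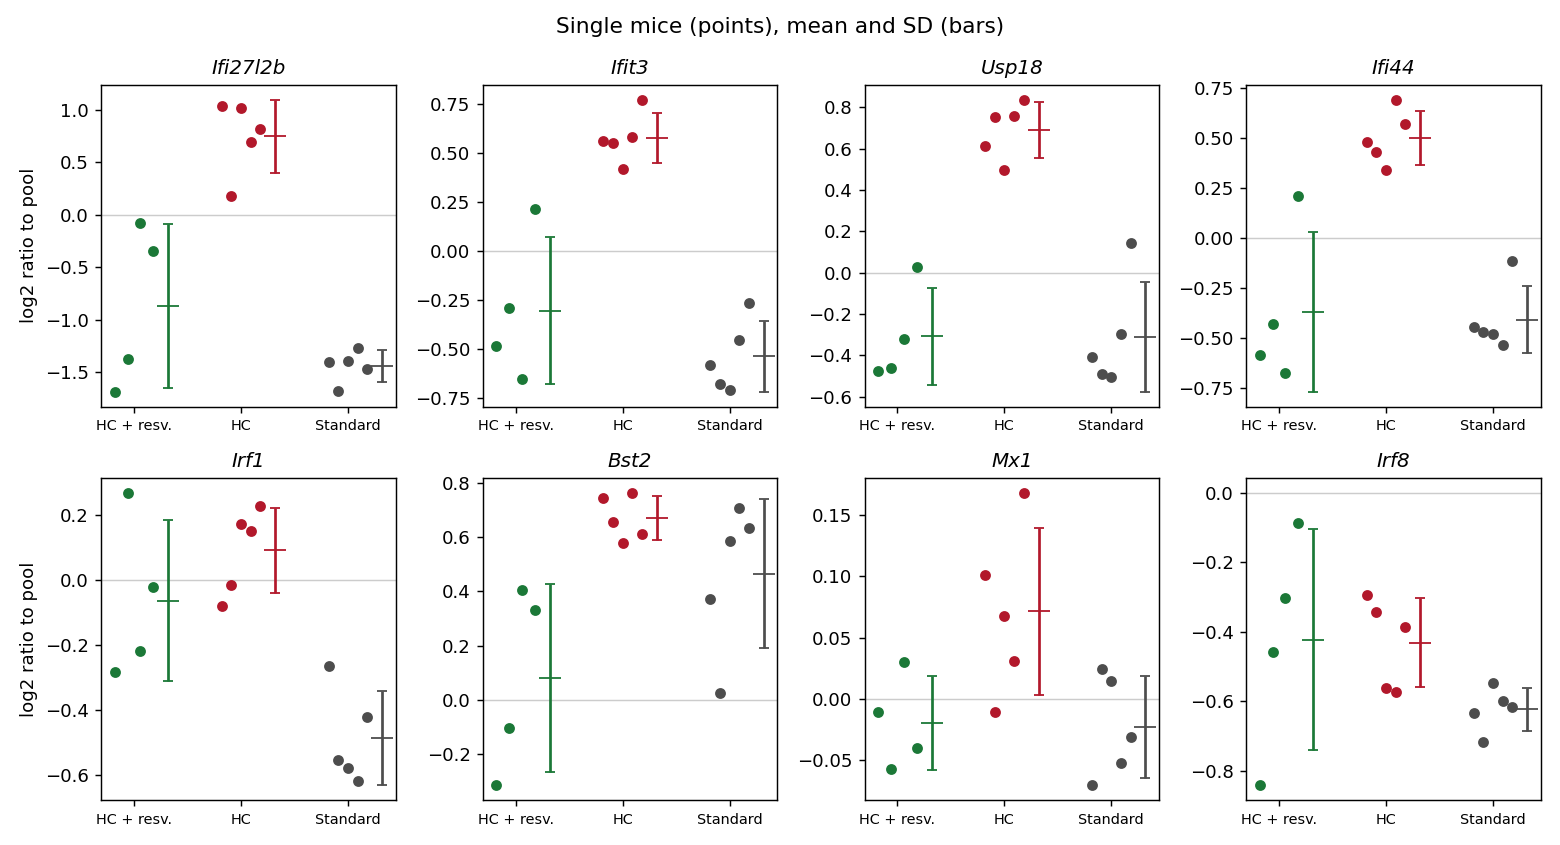
Points are single mice and bars the mean and SD of each diet, as log2 ratio to pool (vertical axis, with its own range in each panel), for 8 of the 33 genes. In Ifi27l2b, Ifit3, Usp18 and Ifi44 all 5 high-calorie mice lie above all other mice, whereas in Mx1 and Irf8 the 3 diets overlap.

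ISG15 is a ubiquitin-like protein that is attached to other proteins, and USP18 both removes it and blocks the interferon receptor. Usp18 had log2 ratios of -0.48, -0.46, -0.32 and 0.026 in resveratrol mice, 0.61, 0.75, 0.50, 0.76 and 0.84 in high-calorie mice and -0.41, -0.49, -0.50, -0.30 and 0.14 in standard-diet mice. All high-calorie mice exceeded all mice of both other diets, in which mouse 4 of the resveratrol diet and mouse 5 of the standard diet were highest. Usp18 rose by 1.00 ± 0.12 (adjusted p = 0.000378) and fell by 1.00 ± 0.13 with resveratrol, the smallest adjusted p of the 33 genes in that comparison (0.00315). Between resveratrol and standard-diet mice the Usp18 difference was 0.0016 ± 0.13, with a 95% interval of -0.28 to 0.28. Isg15 rose by 0.71 ± 0.14 (adjusted p = 0.00885) and fell by 0.67 ± 0.15 with resveratrol (adjusted p = 0.0246), without overlap between diets in either comparison.

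The OAS enzymes make 2′-5′ oligoadenylates that switch on RNase L, which cuts RNA. Of 6 tested members of the family 4 rose on the high-calorie diet and 3 fell with resveratrol, against 5.37% and 2.23% of all genes. Oas1a had log2 ratios of -0.43, -0.36, -0.32 and 0.087 in resveratrol mice, 0.27, 0.29, 0.11, 0.24 and 0.29 in high-calorie mice and -0.16, -0.34, -0.33, -0.30 and -0.16 in standard-diet mice. No high-calorie mouse overlapped with standard-diet or resveratrol mice, and resveratrol mouse 4 came nearest to them. Oas1a rose by 0.50 ± 0.083 (adjusted p = 0.00265) and fell by 0.50 ± 0.088 with resveratrol (adjusted p = 0.00937). The OAS-like genes Oasl1 and Oasl2 moved likewise. Oasl1, which in mice restrains translation of Irf7, had log2 ratios of -0.29, -0.33, -0.28 and 0.11 in resveratrol mice, 0.36, 0.47, 0.25, 0.34 and 0.55 in high-calorie mice and -0.62, -0.72, -0.69, -0.47 and 0.15 in standard-diet mice. Its high-calorie mice were all above the others, though standard-diet mouse 5 and resveratrol mouse 4 stood close below. Oasl1 rose by 0.87 ± 0.14 (adjusted p = 0.00249) and fell by 0.59 ± 0.15 (adjusted p = 0.0376).

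Oasl2 had log2 ratios of -0.20, -0.18, -0.052 and -0.22 in resveratrol mice, 0.20, 0.27, 0.14, 0.25 and 0.23 in high-calorie mice and -0.39, -0.38, -0.35, -0.017 and -0.22 in standard-diet mice, and it was well above background on 4 of 4 resveratrol, 5 of 5 high-calorie and 2 of 5 standard-diet arrays. Its diets did not overlap in either comparison with the high-calorie mice. Oasl2 rose by 0.49 ± 0.065 (adjusted p = 0.000560) and fell by 0.38 ± 0.069 with resveratrol (adjusted p = 0.00991). Oas2 rose by 0.21 ± 0.054 (adjusted p = 0.0308) and was not called with resveratrol (-0.13 ± 0.058, adjusted p = 0.203). Oas3, whose promoter is printed above, had differences of -0.033 ± 0.035 and 0.027 ± 0.038, neither of them called. Oas1b is annotated as a transcribed pseudogene in C57BL/6J. Its log2 ratios were -0.038, 0.027, -0.24 and -0.063 in resveratrol mice, 0.10, 0.0053, 0.0054, -0.060 and -0.083 in high-calorie mice and 0.56, -0.11, 0.00098, 0.11 and -0.0052 in standard-diet mice. All 3 diets overlapped, standard-diet mouse 1 was the highest of all, and 9 of 14 arrays were well above background. The Oas1b differences were -0.12 ± 0.10 on the diet and -0.072 ± 0.11 with resveratrol.

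The Mx GTPases trap viral nucleoproteins, and both mouse genes are annotated as transcribed pseudogenes in this strain. Mx1 had log2 ratios of -0.010, -0.057, 0.031 and -0.040 in resveratrol mice, 0.10, -0.011, 0.068, 0.031 and 0.17 in high-calorie mice and -0.070, 0.025, 0.015, -0.053 and -0.031 in standard-diet mice. The diets overlapped in both comparisons. Mx1 differed by 0.094 ± 0.039 on the high-calorie diet (adjusted p = 0.131) and by -0.091 ± 0.041 with resveratrol (adjusted p = 0.210). Mx2 differed by 0.47 ± 0.15 (adjusted p = 0.0587) and -0.39 ± 0.16 (adjusted p = 0.160), and neither gene was called.

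Among the other antiviral effectors, Ifi44, a cytoplasmic protein gene, had log2 ratios of -0.58, -0.43, -0.67 and 0.21 in resveratrol mice, 0.48, 0.43, 0.34, 0.69 and 0.57 in high-calorie mice and -0.44, -0.47, -0.48, -0.54 and -0.11 in standard-diet mice. The high-calorie mice were separate from all others, and resveratrol mouse 4 stood well above the remaining resveratrol mice. Ifi44 rose by 0.91 ± 0.14 (adjusted p = 0.00150) and fell by 0.87 ± 0.15 with resveratrol (adjusted p = 0.00821). Rtp4, a receptor transport protein gene, rose by 0.80 ± 0.19 (adjusted p = 0.0188), and its difference with resveratrol of -0.59 ± 0.20 was not called (adjusted p = 0.0984). Eif2ak2, which encodes the RNA-activated kinase PKR, had differences of 0.20 ± 0.065 (adjusted p = 0.0620) and -0.19 ± 0.069 (adjusted p = 0.124). Ifi35 had 0.11 ± 0.078 and -0.23 ± 0.082, and the exonuclease gene Isg20 had -0.060 ± 0.093 and -0.025 ± 0.098. None of these last 3 genes was called.

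Rsad2 encodes viperin, which makes a chain-terminating nucleotide that stops viral polymerases, and its 3 probes disagreed. The brightest, A_51_P505134, had log2 ratios of 0.20, -0.0091, 0.033 and -0.019 in resveratrol mice, 0.022, -0.032, 0.0018, -0.019 and 0.014 in high-calorie mice and -0.085, 0.046, 0.082, -0.046 and -0.027 in standard-diet mice. No diet stood apart, and the differences of 0.0035 ± 0.046 and 0.054 ± 0.049 were not called. The second, A_52_P670026, gave -0.54, -0.42, -0.80 and -0.040 in resveratrol mice, 0.59, 0.80, 0.40, 0.59 and 1.04 in high-calorie mice and -0.63, -0.55, -0.64, -0.43 and -0.25 in standard-diet mice. There all 5 high-calorie mice were above all others. With every probe tested on its own, over 37126 probes, A_52_P670026 rose by 1.18 ± 0.14 (limma, adjusted p = 0.000243) and fell by 1.13 ± 0.15 with resveratrol (limma, adjusted p = 0.00235). The third, A_51_P505132, rose by 0.20 ± 0.061 (adjusted p = 0.0492) and was not called with resveratrol (-0.17 ± 0.064, adjusted p = 0.143). Where in the transcript these probes lie was not analysed here. Cmpk2, the next gene on the chromosome and an interferon target itself, rose by 0.73 ± 0.11 (adjusted p = 0.00105) and fell by 0.70 ± 0.11 with resveratrol (adjusted p = 0.00698).

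**Figure D4:**
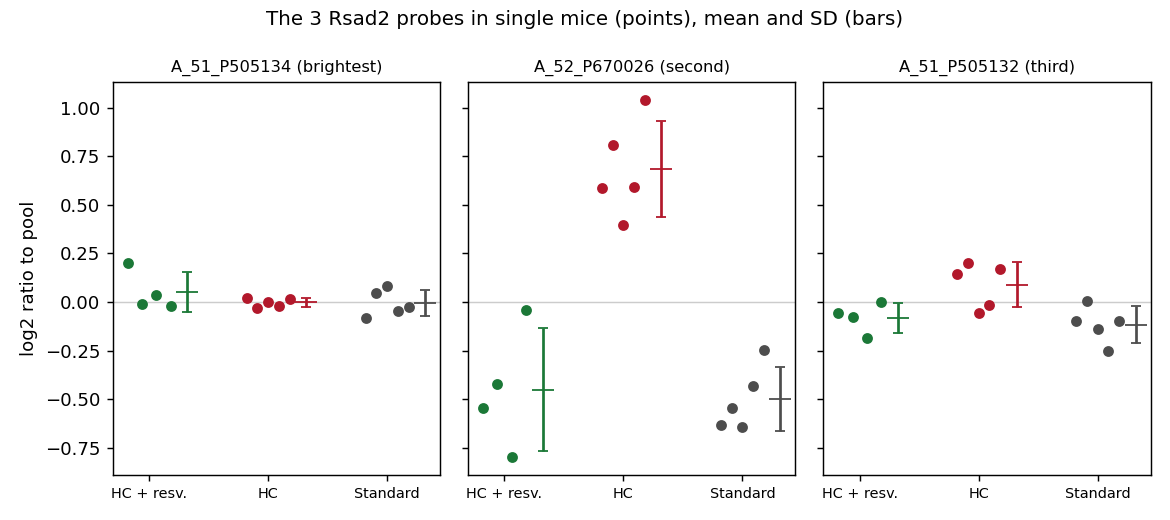
Points are single mice and bars the mean and SD of each diet, as log2 ratio to pool on 1 shared vertical axis, for the 3 probes of Rsad2. The high-calorie mice lie above all others for A_52_P670026, between 0.40 and 1.04, and within the range of the others for A_51_P505134.

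The RNA sensors detect viral RNA in the cytoplasm and start interferon production. Ifih1, which encodes MDA5, rose by 0.66 ± 0.14 (adjusted p = 0.00953), with standard-diet mouse 5 inside the high-calorie range. With resveratrol its difference was -0.44 ± 0.14 (adjusted p = 0.0875, not called), although every resveratrol mouse lay below every high-calorie mouse. Ddx58, which encodes RIG-I, had differences of 0.20 ± 0.064 (adjusted p = 0.0613) and -0.18 ± 0.068 (adjusted p = 0.133). Dhx58, a modulator of both sensors, had -0.030 ± 0.051 and 0.018 ± 0.054. Neither Ddx58 nor Dhx58 was called.

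Of the 6 transcription factors 1 rose on the high-calorie diet and 0 fell with resveratrol. The matching shares of all genes were 5.37% and 2.23%, and 6 genes are too few to differ clearly from them. Irf1, which answers to interferon gamma as well, had log2 ratios of -0.28, 0.27, -0.22 and -0.022 in resveratrol mice, -0.080, -0.015, 0.17, 0.15 and 0.23 in high-calorie mice and -0.27, -0.55, -0.58, -0.62 and -0.42 in standard-diet mice. Every high-calorie mouse was above every standard-diet mouse, while resveratrol mouse 2 was above them all. Irf1 rose by 0.58 ± 0.10 (adjusted p = 0.00371), its difference with resveratrol was -0.15 ± 0.11 (adjusted p = 0.428), and the difference between resveratrol and standard-diet mice was 0.42 ± 0.11 (adjusted p = 0.144, not called). Irf8, a factor of macrophages and dendritic cells, had log2 ratios of -0.84, -0.46, -0.30 and -0.086 in resveratrol mice, -0.29, -0.34, -0.56, -0.57 and -0.39 in high-calorie mice and -0.63, -0.72, -0.55, -0.60 and -0.62 in standard-diet mice. The resveratrol mice spanned the values of both other diets. Irf8 differed by 0.19 ± 0.11 (adjusted p = 0.263) and 0.0089 ± 0.11 (adjusted p = 0.975). The ISGF3 genes Irf9 and Stat2 differed by 0.43 ± 0.13 (adjusted p = 0.0608) and 0.21 ± 0.14 (adjusted p = 0.323) on the high-calorie diet. Irf7, which amplifies interferon production, differed by 0.20 ± 0.064 (adjusted p = 0.0658), and Irf2, a repressor of the pathway, by 0.011 ± 0.16 (adjusted p = 0.972). Not 1 of these 4 genes was called in any comparison.

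**Figure D5:**
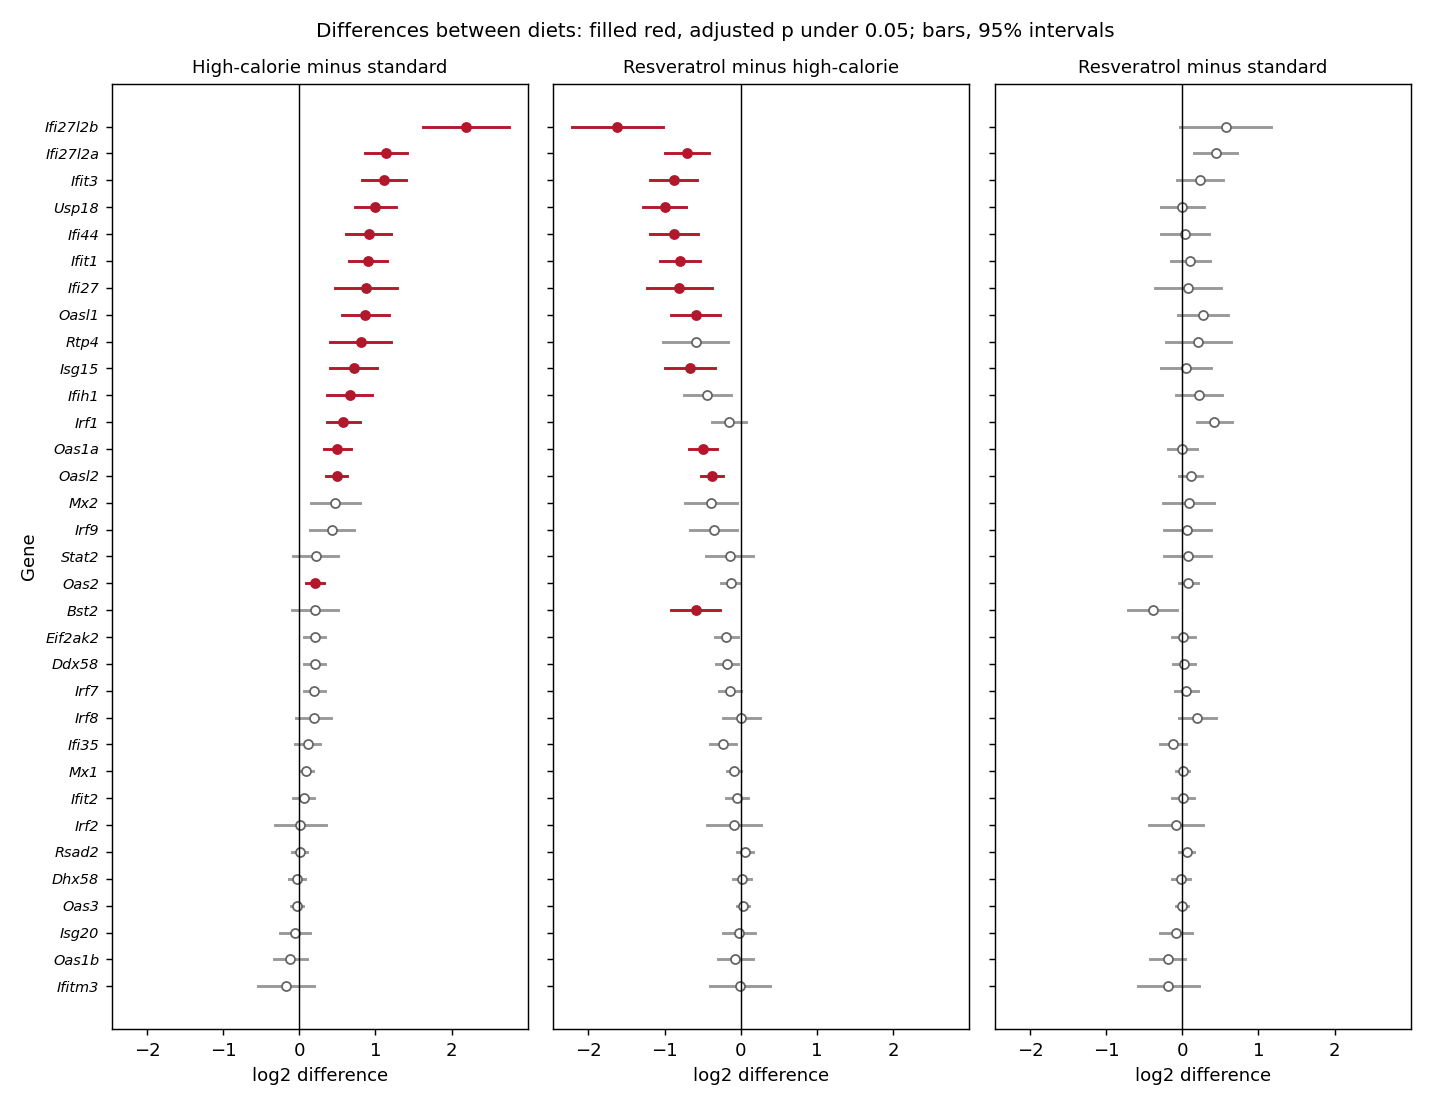
Points give the log2 difference between diets and bars its 95% interval (horizontal axis), for 33 genes (vertical axis) in 3 comparisons, with filled red points at an adjusted p under 0.05. Red points lie to the right of 0 in the first panel (15 genes) and to the left in the second (12 genes), and the third panel has none.

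Between resveratrol and standard-diet mice no gene of the set was called by limma. The median difference over the 33 genes was 0.055, against 0.00045 over all genes tested. Among the 16 genes called in either of the first 2 comparisons, the difference between resveratrol and standard-diet mice ranged from -0.38 in Bst2 to 0.57 in Ifi27l2b, and the 95% interval held 0 in 13 of the 16. The 3 others were Irf1, Ifi27l2a (0.44 ± 0.13, adjusted p = 0.246) and Bst2, and not 1 of them was called. For Ifi27l2b the interval was -0.023 to 1.16. Per animal, the median log2 ratio of the 33 genes was -0.25, -0.18, -0.081 and 0.087 in resveratrol mice 1 to 4. It was 0.17 to 0.29 in high-calorie mice and -0.27 to -0.0052 in standard-diet mice. The SD between mice, as a median over the genes, was 0.23 in resveratrol, 0.090 in high-calorie and 0.16 in standard-diet mice, against 0.087, 0.071 and 0.087 over all genes tested. The high-calorie SD was the lower in 30 of 33 genes against resveratrol mice and in 26 of 33 against standard-diet mice. When resveratrol mouse 4 was left out, the median SD of resveratrol mice was 0.12 (0.080 over all genes), and without standard-diet mouse 5 that of standard-diet mice was 0.14 (0.082 over all genes). The high-calorie SD was then the lower in 20 of 33 genes in either case, omissions chosen after seeing the data.

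The direction held in each subset of arrays, by processing day or by slide number series, while the number of calls did not. On the first processing day, with 2 high-calorie and 3 standard-diet mice, 28 of the 33 genes were higher in high-calorie mice and 10 were called. On the second day, with 3 and 2 mice, 29 were higher and 0 were called. In the second slide series, with 3 and 5 mice, 28 were higher and 11 were called. All 15 risen genes were higher in each of these 3 subsets. Against high-calorie mice, 27 of the 33 genes were lower in resveratrol mice on the first day (4 against 2 mice, 1 called). In the first slide series 26 were lower (3 against 2 mice, 0 called), and in the second, with 1 resveratrol mouse and no test, 30 were lower. All 12 fallen genes were lower in each of these subsets. The risen and fallen genes were called on these same arrays, so their direction in parts of them is not independent support. With the day as a block 15 genes were called higher on the high-calorie diet and 7 lower with resveratrol, and with the slide series as a block 14 and 10. The share of all genes called in these subsets and block models is not given here. The counts of calls in them therefore cannot show whether these genes differed from others there.

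Which mice were used decided some of the calls. When standard-diet mouse 5 was left out, 20 of the 33 genes were called higher on the high-calorie diet, while calls over all genes in either direction came to 18.3% of those tested, against 9.44% with all mice. When resveratrol mouse 4 was left out as well, 19 of the 33 were called lower with resveratrol, while calls over all genes in either direction came to 8.03%, against 5.39% with all mice. These omissions were chosen after seeing the data, in which each of these mice stood highest of its diet in 20 of the 33 genes. The counts of the 33 are for 1 direction, unlike the shares over all genes. Of the 15 risen genes 13 kept their call whichever mouse was left out. The call was lost for Rtp4 without standard-diet mouse 3 or high-calorie mouse 5, and for Oas2 in 7 of 10 such omissions. Of the 12 fallen genes 8 kept their call in all 9 omissions, which were Usp18, Ifit1, Ifit3, Ifi44, Ifi27l2b, Oas1a, Oasl2 and Ifi27l2a. The other 4 lost it in most omissions, Isg15 in 6 of 9, Bst2 in 7 and Ifi27 and Oasl1 in 8 each.

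No ligand gene was called higher on the high-calorie diet. Of 11 tested interferon genes, among 21 listed, 0 rose and 3 fell on the high-calorie diet. Over all genes 5.37% were called higher and 4.07% lower, so 0 risen among 11 genes is not unusual. Ifna4 fell by 0.21 ± 0.042 (adjusted p = 0.00783), Ifna13 by 0.15 ± 0.044 (adjusted p = 0.0484) and Ifng, the type II interferon, by 0.22 ± 0.053 (adjusted p = 0.0225). With resveratrol 2 rose, Ifna4 by 0.23 ± 0.044 and Ifng by 0.22 ± 0.057, against 3.16% of all genes called higher. The interferon alpha genes are near-identical copies, so their probes may report on several of them. Ifnb1, the interferon beta gene, was well above background on 3 of 14 arrays and was not tested.

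Receptor genes of type I interferon showed no called difference. Ifnar1 differed by 0.0025 ± 0.043 between high-calorie and standard-diet mice, with a 95% interval of -0.089 to 0.094, and Ifnar2 by 0.044 ± 0.062, with an interval of -0.090 to 0.18. Among 16 tested genes of receptors and proximal signalling 3 rose on the high-calorie diet and 0 fell. Over all genes 5.37% were called higher and 4.07% lower. The 3 include the interferon gamma receptor genes Ifngr1, which rose by 0.39 ± 0.11 (adjusted p = 0.0389), and Ifngr2, which rose by 0.29 ± 0.063 (adjusted p = 0.0123). With resveratrol 0 of the 16 were called, against 5.39% of all genes.

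Upstream of the ligands, 3 of 17 tested genes of nucleic acid sensing rose and 1 fell on the high-calorie diet, against 5.37% of all genes called higher and 4.07% called lower. With resveratrol 0 of the 17 were called, against 5.39% of all genes. Trim25, a ubiquitin ligase that activates RIG-I, rose by 0.63 ± 0.17 (adjusted p = 0.0357), Ifi204, a DNA-binding protein gene, by 0.63 ± 0.12 (adjusted p = 0.00597) and Rnf135, another ligase of the RIG-I pathway, by 0.31 ± 0.077 (adjusted p = 0.0234). Irf3, the factor that starts interferon beta transcription, fell by 0.23 ± 0.050 (adjusted p = 0.0137).

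A further list of 62 interferon-stimulated genes, 51 of them tested, shares no gene with the 35. It too was chosen with earlier results of these data known, on the same arrays, so it is not independent support. On the high-calorie diet 25 of the 51 rose and 0 fell, against 5.37% of all genes called higher and 4.07% lower. The list's median was 0.27, against -0.0021 over all genes. The smallest adjusted p belonged to Gbp3, a guanylate-binding protein gene, with 1.28 ± 0.13 (adjusted p = 9.91e-05), followed by Gbp6 with 0.54 ± 0.072, Cmpk2 and Lgals3bp with 0.67 ± 0.11. With resveratrol 5 of the 51 fell and 0 rose, against 2.23% of all genes called lower and 3.16% higher. The list's median was -0.16, against -0.0068 over all genes. The 5 that fell were Gbp3 (by 1.00 ± 0.14, adjusted p = 0.00398), Gbp6 (-0.49 ± 0.076), Cmpk2, the RNA-editing enzyme gene Adar (-0.30 ± 0.057) and Lgals3bp (-0.48 ± 0.11). Between resveratrol and standard-diet mice 0 of the 51 were called. This list shares 3 genes with the lists above, Ifi204 and Zbp1 among them.

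Markers of other liver cells were read beside these results. Of 19 Kupffer cell and macrophage markers, all tested, 0 were called on the high-calorie diet, against 9.44% of all genes called in either direction. With so few markers, 0 calls do not show that they were unchanged. Of the 19, 15 were higher in high-calorie mice and the median was 0.11. In 6 of the 19 every high-calorie mouse lay above every standard-diet mouse, against 5.15% of all genes. In 1 every high-calorie mouse lay below, against 5.18%. C1qc and Lyz2, with differences of 0.90 ± 0.30 (adjusted p = 0.0718) and 0.98 ± 0.35 (adjusted p = 0.0895), had the smallest p. The mean log2 ratio of this list was -0.66 to 0.18 in resveratrol, -0.44 to -0.22 in high-calorie and -0.76 to -0.47 in standard-diet mice. The medians were -0.33, -0.35 and -0.52. The resveratrol mice thus overlapped both other diets, and the highest of them lay above both. With resveratrol 1 of the 19 rose, Csf1r by 0.28 ± 0.056 (adjusted p = 0.0149), and 0 fell. Over all genes 3.16% were called higher and 2.23% lower in that comparison. Their part in the interferon results was not tested.

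Of 12 tested dendritic cell markers 1 rose on the high-calorie diet and fell with resveratrol, Ly6d by 1.57 ± 0.19 (adjusted p = 0.000275) and by 1.27 ± 0.20 (adjusted p = 0.00660). Over all genes 5.37% were called higher on that diet and 2.23% lower with resveratrol. Siglech, which marks the plasmacytoid dendritic cells that make much interferon, was at 0.028 ± 0.040 and 0.022 ± 0.042 and was well above background on 11 of 14 arrays. The list's median difference was 0.022 on the high-calorie diet and 0.0015 with resveratrol. Its mean log2 ratio, in which the large differences of Ly6d count, was -0.092 to 0.0063 in resveratrol mice. It was 0.015 to 0.13 in high-calorie and -0.15 to -0.021 in standard-diet mice. Stellate cells make the collagen of the liver. Of 11 tested markers, 5 rose and 2 fell on the high-calorie diet, where 5.37% of all genes were called higher and 4.07% lower. Those that rose were led by the collagen genes Col3a1 (0.75 ± 0.095, adjusted p = 0.000427) and Col1a2 (0.61 ± 0.080, adjusted p = 0.000515). Those that fell were Acta2 (-0.19 ± 0.045) and Ngfr (-0.18 ± 0.050). With resveratrol 1 rose (Ngfr, 0.24 ± 0.053) and 4 fell, where 3.16% of all genes were called higher and 2.23% lower. The list's mean log2 ratio was -0.070 to 0.12 in resveratrol, 0.098 to 0.19 in high-calorie and -0.14 to 0.11 in standard-diet mice. How these cells bear on the interferon genes was not tested.

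The remaining marker lists are short, and their counts are set against 5.37% of all genes called higher and 4.07% called lower on the high-calorie diet. On that diet 0 of 19 lymphocyte markers rose and 1 fell (Cd3d, -0.25 ± 0.070), 1 of 11 neutrophil and monocyte markers rose (Ccr2, 0.24 ± 0.068), and 2 of 12 endothelial markers rose (Pecam1, 0.22 ± 0.055, and Cdh5, 0.41 ± 0.12). Of 17 hepatocyte markers 3 fell, which were Ahsg (-0.74 ± 0.18), Apoa1 (-0.64 ± 0.17) and Hnf4a (-0.15 ± 0.044), and of 8 adipocyte markers 1 rose (Cidec, 2.12 ± 0.18) and 1 fell (Retn, -0.20 ± 0.050). The hepatocyte list's mean log2 ratio was 0.36 to 1.14 in resveratrol, 0.094 to 0.37 in high-calorie and 0.40 to 0.50 in standard-diet mice. Its median difference was -0.18 on the high-calorie diet and 0.41 with resveratrol, against -0.0021 and -0.0068 over all genes. How this bears on the interferon genes was not tested. With resveratrol, where 3.16% of all genes were called higher and 2.23% lower, 1 neutrophil marker rose (Ltf, 0.21 ± 0.056), 1 hepatocyte marker rose (Ahsg, 0.71 ± 0.19), Retn rose by 0.23 ± 0.053 and Cidec fell by 1.17 ± 0.19. Lymphocyte and endothelial lists had 0 calls with resveratrol at the same threshold in limma. In their lists the smallest p belonged to Cd3e (0.15 ± 0.058) and Stab1 (-0.26 ± 0.080). Between resveratrol and standard-diet mice 0 genes of any list named here were called.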

How the data were processed

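Liver RNA of 14 mice was measured on two-colour arrays, 1 animal per array. The deposited scanner files hold, per the file headers, spot intensity and local background for Cy3 and Cy5, as extracted with Agilent Feature Extraction 7.5.1. A table of values deposited by the authors was treated as a score: every column was centred on 0 with an SD of 1, tracked the logged processed Cy3 signal (correlation 0.983 to 0.985) and has an unknown log base. It served only as an alternative.

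Spot means were corrected by normexp with an offset of 50, which shrinks differences of dim probes, and normalised by loess within arrays with controls at weight 0. Ratios were turned to Cy3 over Cy5. Spots with an outlier flag (576) were left out, spots of a probe averaged, and the brightest probe taken per gene. Probes were named through the RefSeq table of GRCm38.p6 (20852 of 41174) and otherwise kept the file's name. A gene was tested if 4 or more arrays had its Cy3 signal well above background, without imputation. limma 3.58.1 in R 4.3.3 fitted the 3 diets on all 14 arrays, with Benjamini-Hochberg adjustment within each comparison and calls at an adjusted p under 0.05. The steps from the fit on were tested on simulated ratios.

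The genes and lists were chosen with earlier results of these data known. Values in every mouse are given for the 8 genes with the smallest adjusted p in each of the first 2 comparisons, the 4 with the smallest in the third, and Mx1, Oas1b, Irf1 and Irf8. From other lists up to 4 called genes with the smallest adjusted p were named, or up to 2 where none was called, and Ifnar1, Ifnar2 and Ifnb1 always. A gene that this rule would name is not reported here. The other Rsad2 and Ifi27l2a probes, Siglech and the fallen stellate cell markers Acta2 and Ngfr were added to these after their values were seen. The labels do not say whether the mice shared a cage. The number of arrays limits the precision. The processing day is the day on which the array image was extracted, and the slide series come from a gap in the slide numbers. Alternatives covered background, normalisation, filters, probes, weights, batches and left-out arrays.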

Additional observations from a re-analysis of the deposited data

Results flagged for a closer look

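Values in a diet were checked for a mouse far from the others of its diet, over 99 groups of values (33 genes in 3 diets). The gap to the nearest mouse exceeded the 95% limit of Dixon's test in 8 of them, where chance flags about 1 in 20 groups. Resveratrol mouse 4 was the highest of its diet in 3 of the 8, with log2 ratios of 0.30 in Ifit2, 0.0092 in Oas2 and 0.11 in Oasl1. Standard-diet mouse 5 was the highest of its diet in another 3, with 0.018 in Ifit1, -0.11 in Ifi44 and 0.61 in Ddx58. In the remaining 2, high-calorie mouse 3 was the lowest of its diet in Oas1a (0.11) and standard-diet mouse 3 the lowest in Ifit2 (-0.12).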

How the results depend on the processing

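The number of genes called lower with resveratrol, 12 with the processing used, was 7 with Agilent's processed signals, 7 with median centring in place of loess, 5 with the Cy3 channel alone, 4 with the deposited scores, 7 with the processing day as a block, 1 within the first day and 0 within the first slide series. It was 19 without standard-diet mouse 5 and resveratrol mouse 4, an omission chosen after seeing the data. The number called higher on the high-calorie diet, 15, was 0 within the second day, where 3 mice stood against 2, and 11 to 20 under the other alternatives outside single batches. Leaving out 1 mouse at a time gave 13 to 20 genes on the high-calorie diet, 8 to 13 with resveratrol, and 0 between resveratrol and standard-diet mice, where all alternatives gave 0. No called gene changed direction under any alternative, though all of them use the arrays on which the genes were called. The causes of these shifts were not tested.

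Over all genes the counts moved more. On the high-calorie diet 3083 genes were called, 1379 to 5994 when 1 mouse was left out, 859 with array brightness as a covariate, 952 with Cy3 alone, 413 with the deposited scores and 6975 with array weights. With resveratrol 1760 were called, 47 with the scores, 83 with Cy3 alone, 120 with median centring and 352 to 2043 when 1 mouse was left out, and between resveratrol and standard-diet mice 70 and 23 to 214. Of the genes called on the high-calorie diet 56.9% were higher, 79.0% with median centring, 72.0% with Cy3 alone and 80.1% with the scores. With resveratrol 58.7% were higher, 25.8% with median centring, 26.5% with Cy3 alone and 31.9% with the scores. The high-calorie difference of Ifi44 was 0.26 without background correction, and 1.83 with Agilent's processed signals, which change both the background step and the normalisation.

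The labels do not say whether equal replicate numbers pair the mice. Of 13 pairs with the same number 4 had deviations correlated above 0.1, and the range was -0.19 to 0.30. Correlations between so few mice cannot show whether they were matched. With the replicate number as a block 16 genes were called on the high-calorie diet, 9 with resveratrol and 0 between resveratrol and standard-diet mice.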
